A study of Mus musculus with 64 samples.

Results

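Granulocyte-monocyte progenitors (GMP) of Smarcd2 +/- fetuses were compared with common myeloid progenitors (CMP) of Smarcd2 +/- fetuses, both sorted from fetal liver. The libraries were chosen by their labels: heterozygous (HET) libraries numbered 1, 3, 4, 7, 9 and 10 in each population, with number 8 left out of both, giving 12 of the 64 libraries of the series. Both groups were of this genotype on a C57BL/6 background, so the comparison is between gates and not between genotypes. GMP were gated as CD45+, lineage-negative, Sca-1-negative, CD34+ and high for CD16/32, and CMP by the same markers with intermediate CD16/32; the labels write CD177 in both gates where the staining protocol lists CD117. Fetuses were 13 to 14 days post coitum, except that CMP library 1 is labelled 14.5. GMP library 1 is labelled 13 to 14, so as labelled the libraries numbered 1 are not of the same fetus. Libraries 1, 3, 4 and 7 carry M32 in their titles and libraries 9 and 10 carry M33. Otherwise the labels say neither whether equal numbers mark the same fetus nor whether libraries of a group came from separate fetuses. The p-values therefore reflect how far these libraries spread, which may in part be technical. The design text names wild-type (WT) and knock-out (KO) fetuses for these gates, and the HET libraries hold the largest number of GMP and CMP pairs of 1 genotype.

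CMP can give rise to granulocytes, monocytes, megakaryocytes and erythrocytes in culture, and GMP are restricted mainly to granulocytes and monocytes. Early in granulocyte differentiation, cells make the proteases and peroxidases stored in primary (azurophil) granules, and the proteins of secondary and tertiary granules follow later. C/EBP-family factors, PU.1 (encoded by Spi1) and Gfi1 act in the neutrophil branch, while Irf8 favours monocytes and dendritic cells. Smarcd2 encodes BAF60B, a subunit of the BAF (SWI/SNF) chromatin remodelling complex.

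Over the genes listed in both count tables, the 10 largest rises in GMP included the eosinophil genes Ear6, Epx, Prg2 and Prg3, the S100 genes S100a8 and S100a9 and the primary granule gene Elane, and the largest fall was of Flt3, among called genes with an average log2 CPM of at least 3 and the same direction in all 6 pairs. The promoters of 6 genes are shown as examples of the groups described below: Elane and Mpo of the primary granule, S100a8 of the later granules, Prg3 and Epx of eosinophils, and Flt3 of the falls. Each covers 250 bases before and 50 after the start of the gene in RefSeq (GRCm38.p6), 300 bases in all, at Elane chr10:79886062-79886361 (plus strand), Mpo chr11:87793534-87793833 (plus strand), S100a8 chr3:90668821-90669120 (plus strand), Prg3 chr2:84987965-84988264 (plus strand), Epx chr11:87875487-87875786 (minus strand), Flt3 chr5:147400440-147400739 (minus strand). Capitals mark matches, on either strand, to 3 patterns. The first is GAGGAA, found in many sites of the factor PU.1. The second, AGATAA, is a core of GATA factor sites. The third is the loose C/EBP pattern TTNNGNAA. No match overlaps another in these 6 promoters.
Elane: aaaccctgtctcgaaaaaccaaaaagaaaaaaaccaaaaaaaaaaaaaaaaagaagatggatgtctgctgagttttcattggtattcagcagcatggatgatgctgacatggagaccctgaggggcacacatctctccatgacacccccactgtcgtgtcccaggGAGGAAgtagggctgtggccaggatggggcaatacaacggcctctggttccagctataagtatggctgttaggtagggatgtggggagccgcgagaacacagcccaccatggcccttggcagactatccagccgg
Mpo: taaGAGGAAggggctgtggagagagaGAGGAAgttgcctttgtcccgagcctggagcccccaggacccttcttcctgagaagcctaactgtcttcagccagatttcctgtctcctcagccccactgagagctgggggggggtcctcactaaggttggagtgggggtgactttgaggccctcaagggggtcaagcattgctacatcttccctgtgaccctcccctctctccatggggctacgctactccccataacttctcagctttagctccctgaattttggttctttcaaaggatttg
S100a8: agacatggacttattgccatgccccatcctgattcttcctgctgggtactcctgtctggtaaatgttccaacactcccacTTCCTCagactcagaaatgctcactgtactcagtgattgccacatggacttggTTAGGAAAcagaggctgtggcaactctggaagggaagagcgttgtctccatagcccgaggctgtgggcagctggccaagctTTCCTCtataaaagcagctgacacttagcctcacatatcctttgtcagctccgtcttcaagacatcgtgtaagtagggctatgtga
Prg3: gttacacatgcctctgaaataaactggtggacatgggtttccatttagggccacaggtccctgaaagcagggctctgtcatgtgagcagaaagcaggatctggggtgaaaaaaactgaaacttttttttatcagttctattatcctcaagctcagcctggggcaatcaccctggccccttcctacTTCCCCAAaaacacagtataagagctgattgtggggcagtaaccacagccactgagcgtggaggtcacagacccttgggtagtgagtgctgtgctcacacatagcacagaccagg
Epx: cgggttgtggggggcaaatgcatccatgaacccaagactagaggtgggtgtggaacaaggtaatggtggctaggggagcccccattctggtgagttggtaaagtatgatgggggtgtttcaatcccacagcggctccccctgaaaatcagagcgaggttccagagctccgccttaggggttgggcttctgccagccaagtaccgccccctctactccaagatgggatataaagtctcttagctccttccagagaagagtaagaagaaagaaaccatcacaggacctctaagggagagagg
Flt3: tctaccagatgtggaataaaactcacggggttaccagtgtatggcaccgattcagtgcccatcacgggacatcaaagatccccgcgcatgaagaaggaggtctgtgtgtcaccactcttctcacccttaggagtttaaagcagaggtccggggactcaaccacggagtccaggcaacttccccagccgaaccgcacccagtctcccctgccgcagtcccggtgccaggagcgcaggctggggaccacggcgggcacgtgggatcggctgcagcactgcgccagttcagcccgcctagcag
Elane held 1 match to GAGGAA and Mpo held 2. S100a8 held 2 matches to GAGGAA, both on the opposite strand, and 1 to TTNNGNAA. Prg3 held 1 match to TTNNGNAA, and Epx and Flt3 held 0 matches to any of the 3 patterns. Of the 10 genes with the largest rises 9 had an entry in the promoter table, and TTNNGNAA was found in 7 of these 9; of the 9 falls named by rank 7 had an entry, and it was found in 1 of these 7. The pattern occurs in 40.7% of the 32851 promoters of the table, GAGGAA in 28.3% (2 of 9 rises and 3 of 7 falls) and AGATAA in 11.2% (1 of 9 and 1 of 7). These matches describe letters in a window and are no measure of binding.

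Reads had been counted per gene from Smart-seq2 cDNA, a full-length amplification method for small cell numbers. GMP libraries held 1614881 to 4831491 gene reads and CMP libraries 3696035 to 4943842. The table of GMP counts lists 27892 genes and that of CMP counts lists 15790, of which 15734 are in both and were compared; these hold at least 99.5% of the reads of each library. Of them 11082 had enough reads to be tested and 4652 did not. GMP libraries 7 and 9 stood apart before any comparison. Their transcript length index, the median deviation of genes with transcripts over 5000 bases minus that of genes with transcripts under 1500 bases on the log2 scale, was -1.98 and -1.03, against 0.20 to 0.65 in the other 4 GMP libraries and -0.25 to 0.43 in CMP. The first principal component of log2 CPM (reads of a gene per 1000000 reads in the library) held 59.4% of the variance and set these libraries apart at 149 and 93.5, against -35.9 to 1.63 for the other 10. On the second component GMP 1, 3, 4 and 10 lay at -40.4 to -36.0 and GMP 9 at -13.8, while GMP 7, at 20.25, was inside the CMP range of 13.9 to 38.2. Results are therefore given for all 6 pairs and, where it matters, for the 4 pairs without 7 and 9, an alternative chosen after seeing the data.

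**Figure D1:**
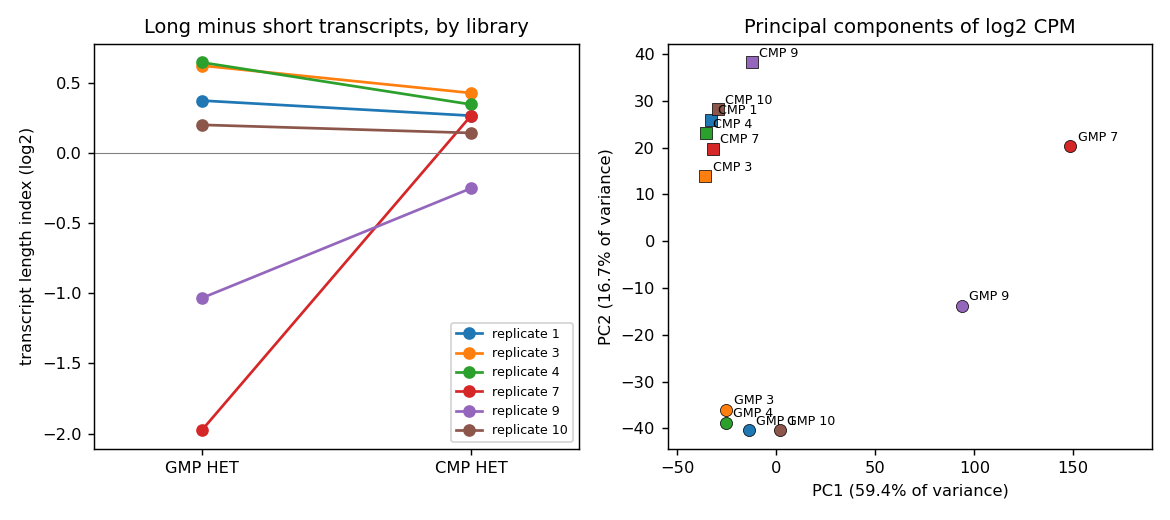
Left, transcript length index (log2, y axis) of each GMP HET and CMP HET library, with same-numbered libraries joined; right, the first 2 principal components of log2 CPM, circles for GMP and squares for CMP. GMP 7 (-1.98) and GMP 9 (-1.03) lie below the other 10 libraries in the index and to the right of them on the first component.

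The gates were checked on their antigens, which the sort used and which are therefore described without a test. In CPM of all gene reads, Fcgr3, which encodes CD16, had 599, 760 and 1120 (lowest, median and highest) in GMP and 69.5, 75.6 and 112 in CMP, and 1.59 to 17.5 in the 6 HET libraries of the megakaryocyte-erythroid progenitor (MEP) gate. Fcgr2b, which encodes CD32, had 191, 221 and 290 in GMP and 35.4, 42.8 and 51.4 in CMP. Cd34 had 351, 499 and 624 in GMP and 781, 945 and 1022 in CMP, and 28.9 to 49.0 in MEP. The GMP and CMP libraries did not overlap for these 3 antigens, and the order of CD16/32 transcripts was that of the gate. They overlapped for Ptprc, which encodes CD45, with 30.6, 108 and 134 in GMP and 78.3, 159 and 209 in CMP. Kit, which encodes CD117, overlapped too, with 25.9, 218 and 242 in GMP and 129.8, 203 and 229 in CMP. The myeloid marker Mpo had a median of 14367 in GMP, 3645 in CMP and 125 in MEP, and the erythroid factor Gata1 had medians of 28.01 in GMP, 22.47 in CMP and 179 in MEP.

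Smarcd2 transcripts were detected in all 12 HET libraries, and their difference between the gates did not pass the test. From here on levels are CPM scaled by TMM (trimmed mean of M-values), given as lowest, median and highest over 6 libraries, and each difference is the log2 fold change of GMP over CMP ± SE. Smarcd2 had 40.3, 62.1 and 93.5 CPM in GMP and 26.3, 58.4 and 63.9 CPM in CMP (0.36 ± 0.25, edgeR adjusted p 0.415), and the ranges overlapped. For scale, 3 KO GMP libraries had 0 to 1.15 CPM and 3 WT GMP libraries 94.5 to 98.3 CPM, and KO and WT CMP libraries had 0.536 to 1.33 and 80.8 to 118 CPM.

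Of the 11082 genes tested, 421 (3.80%) were higher and 244 (2.20%) lower in GMP by edgeR's quasi-likelihood test at an adjusted p under 0.05, in all 665 or 6.00%. Unadjusted p was under 0.05 for 2604. The direction was shared by all 6 pairs for 412 of the 421 and 238 of the 244. Every GMP library lay above every CMP library for 367 of the 421 and below for 212 of the 244, where 5.77% and 4.39% of all tested genes lay so. The median called rise was 1.52 and the median called fall -1.70, and 115 rises and 84 falls exceeded 4-fold. Without pairs 7 and 9, 1532 genes were higher (13.7%) and 1366 lower (12.3%) of 11151 tested. Of the 665, 655 were called again and 0 changed direction. The remaining pairs had also set the 665 calls, so this is no independent check. Leaving out 1 pair at a time gave 272 to 1386 calls, with the highest count without pair 7. The median over all tested genes was 0.01; with scaling by library size alone it was -0.21, and the split was then 296 higher and 314 lower.

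**Figure D2:**
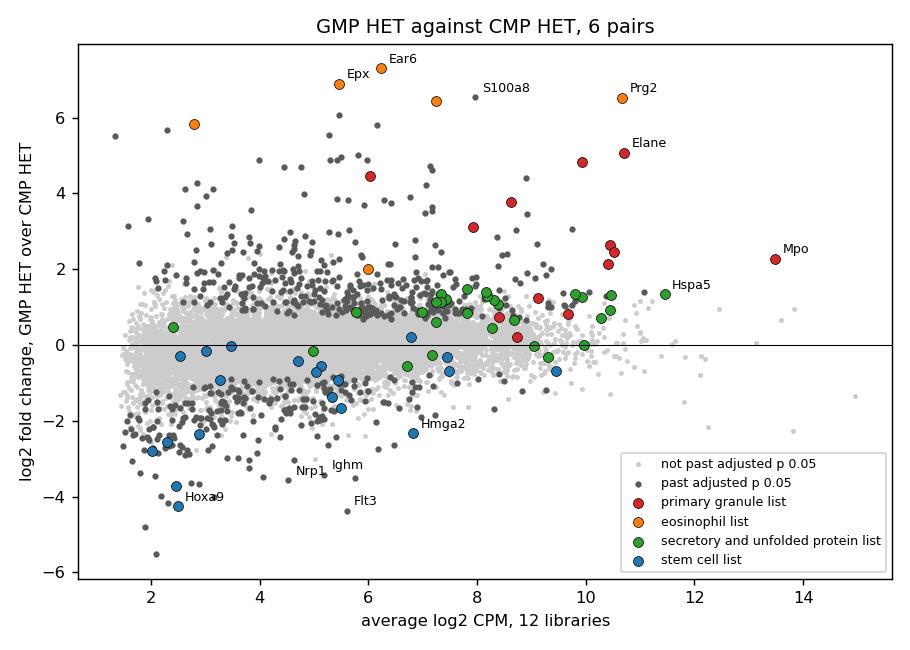
Log2 fold change of GMP HET over CMP HET (y axis) against average log2 CPM over the 12 libraries (x axis); each point is 1 of 11082 genes, dark where the adjusted p is under 0.05, and coloured for 4 gene lists. Eosinophil and primary granule genes lie above 0 with values up to 7.30, and stem cell genes reach -4.26.

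Primary granule genes were higher in GMP. Of 13 tested, 10 rose and 0 fell, with a median of 2.45 against 0.01 over all genes, and without pairs 7 and 9 11 rose. Over all genes 3.80% were higher, and 13.7% without these pairs. Elane, neutrophil elastase, had 991, 1422 and 10608 CPM in GMP and 47.0, 56.7 and 96.2 CPM in CMP (5.07 ± 0.42, adjusted p 0.000179). GMP 7 and 9 were the highest at 10608 and 4128 CPM, and the lowest GMP library was still over 10 times the highest CMP library; without pairs 7 and 9 the difference was 4.52. Mpo, myeloperoxidase, had 10778, 13543 and 42874 CPM in GMP and 3116, 3367 and 3962 CPM in CMP (2.27 ± 0.28, adjusted p 0.00157; 1.90 without pairs 7 and 9), with no overlap. Ms4a3, a membrane protein of granulocyte-monocyte progenitors, had 842, 1063 and 4605 CPM in GMP and 41.8, 48.6 and 78.3 CPM in CMP (4.84 ± 0.37, adjusted p 0.00012). Prss57, a serine protease of neutrophil granules, had 84.6, 109 and 204 CPM in GMP and 3.81, 5.65 and 6.71 CPM in CMP (4.45 ± 0.25, adjusted p 2.39e-05), again without overlap and with a narrower GMP range.

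The other rises of the primary granule list were Cd63 (3.76), a granule membrane tetraspanin, Nkg7 (3.13), a granule membrane protein, Ctsg (2.64), which encodes cathepsin G, Serpinb1a (2.45), an inhibitor of neutrophil proteases, Srgn (2.13), the granule proteoglycan serglycin, and Prtn3 (1.25), proteinase 3. In each the GMP libraries all lay above the CMP libraries. Prtn3 had 591, 688 and 1494 CPM in GMP and 255, 314 and 363 CPM in CMP, and its call was lost without pair 1, 3 or 10 (highest adjusted p 0.0607). Serpinb1a was lost without pair 9 (adjusted p 0.0635), and its difference was 1.70 without pairs 7 and 9. Nkg7 was 2.41 without them. Lysozyme, Lyz2, had 451, 651 and 3081 CPM in GMP and 398, 464 and 674 CPM in CMP (0.82 ± 0.35, adjusted p 0.194), overlapping ranges, and Gusb, a lysosomal glucuronidase, did not pass with all 6 pairs (0.73 ± 0.19, adjusted p 0.0585; 0.00416 without pairs 7 and 9), though every GMP library was above every CMP library.

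Of 18 secondary and tertiary granule genes only 4 could be tested, and these 4 rose. S100a9 had 4, 45, 2, 0, 3 and 5 reads in the CMP libraries. It passed the filter on low counts through GMP, where it is high, so the count describes only the genes that could be tested. S100a8, a subunit of the calcium-binding protein calprotectin, had 330.0, 481 and 653 CPM in GMP and 2.87, 4.70 and 12.3 CPM in CMP (6.54 ± 0.41, adjusted p 4.4e-05). Its partner S100a9 had 48.1, 74.5 and 149 CPM in GMP and 0, 0.815 and 10.1 CPM in CMP (6.07 ± 0.68, adjusted p 0.00102; 5.06 without pairs 7 and 9). In both, CMP library 3 was the highest of CMP and still below every GMP library. Ltb4r1, a leukotriene B4 receptor (3.84 ± 0.21), and Hp, haptoglobin (2.46 ± 0.18), also rose with no overlap. The other members were not listed in both tables or had too few reads to be tested. Of 6 NADPH oxidase subunit genes 1 rose, Cyba, with 112, 151 and 929 CPM in GMP and 57.0, 62.4 and 85.5 CPM in CMP (1.73 ± 0.40, adjusted p 0.0397); this call held only without pair 7 among the fits that left out 1 pair, and the difference was 1.07 without pairs 7 and 9, where 3 of the 6 rose. Over all genes 3.80% were higher, and 13.7% without these pairs.

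**Figure D3:**
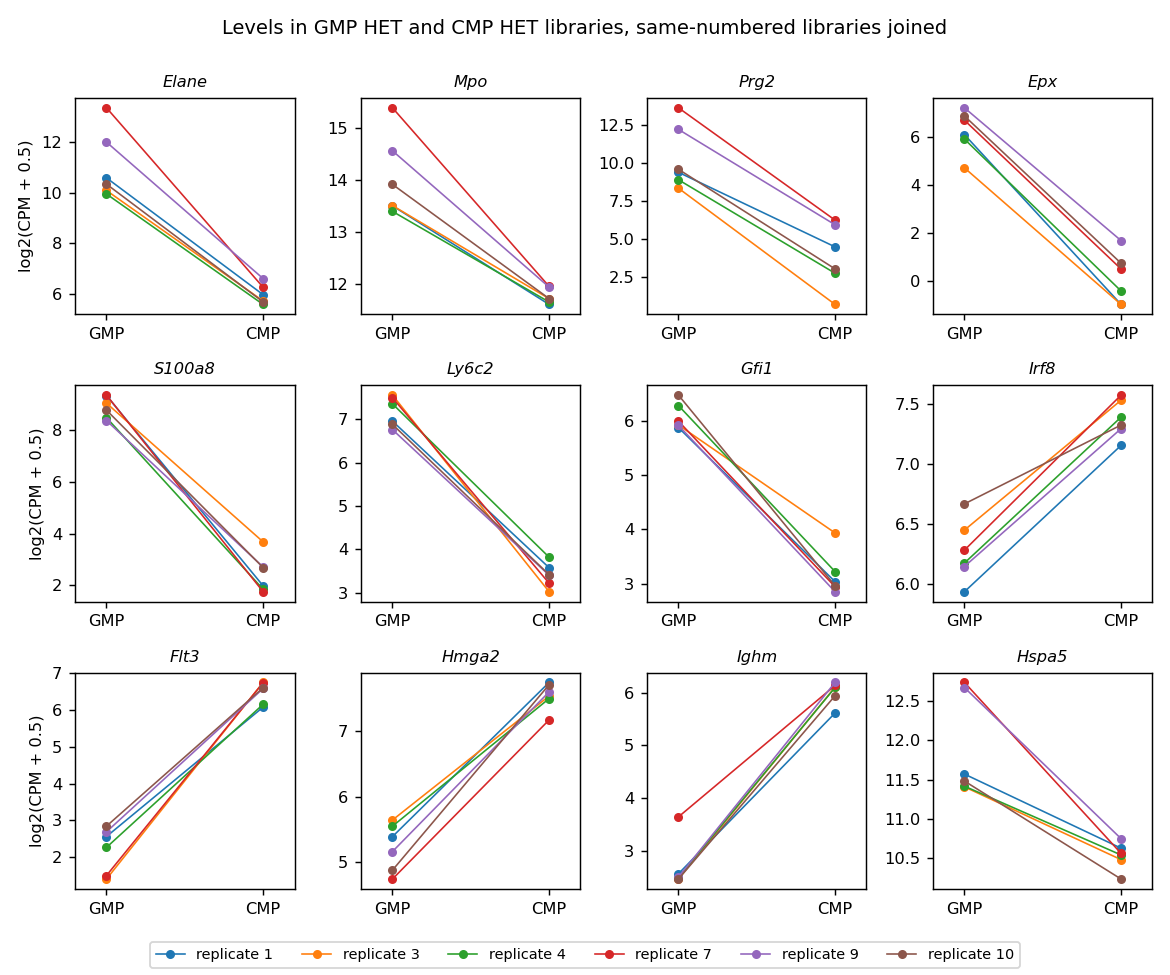
Level of 12 genes as log2(CPM + 0.5) (y axes) in GMP HET and CMP HET libraries, with lines joining libraries of the same number. The 6 lines of each gene run in the same direction, and the GMP levels of Elane, Mpo and Prg2 are highest in libraries 7 and 9.

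Of 11 eosinophil genes 6 could be tested, and these 6 rose (median 6.49), also without pairs 7 and 9. Epx and Ear6 had under 10 reads in 5 of the 6 CMP libraries, and Prg3 had 3 to 29 reads there. All of these passed the filter on low counts through GMP, where they are high. The count and the median therefore describe only the genes that could be tested. Over all genes 3.80% were higher, and 13.7% without pairs 7 and 9. Prg2, eosinophil major basic protein, had 322, 714 and 12560 CPM in GMP and 1.12, 14.7 and 74.7 CPM in CMP (6.53 ± 0.44, adjusted p 5.38e-05). Levels varied widely within each gate, and same-numbered libraries 7 and 9 were the highest in both, but the gates did not overlap. Prg3, a homolog of Prg2, had 80.3, 132 and 829.9 CPM in GMP and 0.672, 2.25 and 6.49 CPM in CMP (6.44 ± 0.31, adjusted p 1.16e-05). Epx, eosinophil peroxidase, had 25.8, 86.4 and 150 CPM in GMP and 0, 0.568 and 2.69 CPM in CMP, where 2 libraries had no reads (6.90 ± 0.46, adjusted p 5.53e-05). Ear6, an eosinophil-associated ribonuclease, had 48.4, 133 and 274 CPM in GMP and 0.224, 0.782 and 1.98 CPM in CMP (7.30 ± 0.30, adjusted p 1.15e-05); it belongs to a family of near-identical copies between which reads can be split, so its own level is uncertain.

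Basophil and mast cell genes rose in 4 of 5 tested and fell in 0 (median 2.47). Among all genes 3.80% were higher and 2.20% lower. Hdc, the histamine-forming decarboxylase, had 593, 676 and 1028 CPM in GMP and 73.3, 85.2 and 112 CPM in CMP (3.04 ± 0.19, adjusted p 4.4e-05), and Cpa3, mast cell carboxypeptidase, had 203, 312 and 751 CPM in GMP and 92.8, 113 and 145 CPM in CMP (1.55 ± 0.25, adjusted p 0.00713). Both were clear of overlap. Mcpt8, a basophil protease, had 8.09, 11.6 and 65.3 CPM in GMP and 2.16, 3.39 and 5.25 CPM in CMP (2.47 ± 0.57, adjusted p 0.0379; 1.49 without pairs 7 and 9), and was lost without pair 1, 3, 9 or 10. Cd200r3, a receptor of basophils and mast cells (2.52 ± 0.48), was lost without pair 9 or 10 and was 1.68 without pairs 7 and 9. Gzmb and Tpsab1 had no reads in any CMP library.

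Among 22 granulocyte-monocyte transcription factors 3 rose and 3 fell, with a median of -0.03, where 3.80% of all genes were higher and 2.20% lower. Without pairs 7 and 9, 6 rose and 5 fell, against 13.7% and 12.3% of all genes. Gfi1, a repressor required for neutrophil differentiation, had 58.3, 61.8 and 88.5 CPM in GMP and 6.71, 7.49 and 14.8 CPM in CMP (2.99 ± 0.25, adjusted p 0.00019), and every GMP library was above every CMP library. Tfec (1.53 ± 0.23), of the MiT family, and Cebpd (1.41 ± 0.22), of the C/EBP family, also rose. Irf8 had 60.7, 74.5 and 101 CPM in GMP and 142, 163 and 190 CPM in CMP (-1.11 ± 0.17, adjusted p 0.00629), and was lower in GMP with no overlap. Irf5, an interferon regulatory factor of monocytes and macrophages, fell (-1.81 ± 0.42, adjusted p 0.0389), and so did the inhibitor of differentiation Id2 (-2.50 ± 0.57, adjusted p 0.0355). The Irf5 call held in the fit without pair 7 and in no other fit that left out 1 pair; that of Id2 was lost without pair 1, 4, 9 or 10 and without pairs 7 and 9 together (-1.89, adjusted p 0.0622).

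Several named regulators of the same branch did not pass. Cebpa had 4.33, 30.7 and 50.4 CPM in GMP and 16.7, 23.7 and 37.0 CPM in CMP (-0.18 ± 0.49, adjusted p 0.836). GMP 7 and 9 were at 4.33 and 8.74 CPM, below every CMP library, while the other 4 GMP libraries were at 28.7 to 50.4 CPM, and without these pairs the difference was 0.53 (adjusted p 0.215). Cebpb had 11.8, 27.8 and 35.7 CPM in GMP and 7.17, 13.2 and 17.96 CPM in CMP (1.04 ± 0.33, adjusted p 0.103), and the ranges overlapped. Spi1 had 137, 171 and 263 CPM in GMP and 104, 129 and 168 CPM in CMP (0.47 ± 0.19, adjusted p 0.175; 0.0116 without pairs 7 and 9), higher in GMP in 6 of 6 pairs with overlapping ranges. Klf4, a monocyte factor, had 0, 1.63 and 3.00 CPM in GMP and 2.34, 4.03 and 6.71 CPM in CMP (-1.53 ± 0.59, adjusted p 0.161; 0.033 without pairs 7 and 9), again with overlap.

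Of 15 megakaryocyte-erythroid transcription factors 1 rose and 3 fell (2 and 5 without pairs 7 and 9). The shares over all genes were 3.80% higher and 2.20% lower, and 13.7% and 12.3% without these pairs. The rises are near these shares and are not read as a result about the list. Meis1, a homeobox factor of stem cells, had 10.3, 22.24 and 30.9 CPM in GMP and 49.0, 58.5 and 60.9 CPM in CMP (-1.38 ± 0.26, adjusted p 0.0152). The gates did not overlap for Meis1, and its call was lost without pair 4 or 9. Gfi1b fell (-0.91 ± 0.22, adjusted p 0.0417) and Gata2 rose (0.80 ± 0.19, adjusted p 0.0437), and each kept its call only without pair 7 of the 6 fits that left out 1 pair. Gata1 had 17.2, 36.6 and 62.1 CPM in GMP and 16.2, 20.7 and 27.1 CPM in CMP and did not pass (0.69 ± 0.34, adjusted p 0.252), with GMP 1, 3 and 4 inside the CMP range and GMP 7, 9 and 10 above it.

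Of 22 myeloid receptor genes 2 rose and 6 fell, with a median of -0.70. Without pairs 7 and 9, 6 rose and 9 fell, and the median was 0.016. Among all genes 3.80% were higher and 2.20% lower, and 13.7% and 12.3% without these pairs. Csf2ra, the alpha chain of the GM-CSF receptor, had 24.4, 37.5 and 75.3 CPM in GMP and 8.29, 9.86 and 12.8 CPM in CMP (1.95 ± 0.25, adjusted p 0.00209), and Ifngr1, an interferon gamma receptor chain, had 593, 656 and 1292 CPM in GMP and 216, 227 and 272 CPM in CMP (1.76 ± 0.22, adjusted p 0.00157). Neither overlapped. Flt3, the receptor of FLT3 ligand on early and lymphoid-primed progenitors, had 2.15, 4.86 and 6.68 CPM in GMP and 67.2, 96.3 and 107 CPM in CMP (-4.38 ± 0.34, adjusted p 0.00012), the largest fall among the genes named by rank. The chemokine receptor Ccr2 had 5.33, 22.56 and 31.9 CPM in GMP and 69.6, 129 and 150 CPM in CMP (-2.75 ± 0.34, adjusted p 0.00163). Cx3cr1, the fractalkine receptor, fell as well (-2.01 ± 0.36; lost without pair 10), as did Il17ra (-1.51), a chain of the interleukin 17 receptor, Il6st (-1.63), the shared chain of the interleukin 6 receptor family, and Cd93 (-0.88), a surface antigen of early progenitors, of which each kept its call without pair 7. Il17ra lost it in the other 5 fits without 1 pair, Il6st without pair 1, 3, 9 or 10, and Cd93 without pair 1, 4, 9 or 10.

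Csf1r and Csf3r did not pass with all 6 pairs. Csf1r, the M-CSF receptor, had 26.0, 122 and 156 CPM in GMP and 164, 231 and 308 CPM in CMP (-1.32 ± 0.41, adjusted p 0.0979; -0.67, adjusted p 0.00031, without pairs 7 and 9), and no GMP library reached the lowest CMP library. Csf3r, the G-CSF receptor, had 35.6, 110 and 117 CPM in GMP and 51.3, 68.5 and 92.3 CPM in CMP (0.40 ± 0.32, adjusted p 0.463; 0.79, adjusted p 0.000938, without pairs 7 and 9), and the gates overlapped.

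Monocyte genes moved in both directions, 2 of 20 up and 4 down (5 up and 10 down without pairs 7 and 9). Over all genes the shares were 3.80% up and 2.20% down, and 13.7% and 12.3% without these pairs. Ly6c2, the monocyte surface antigen of mice, had 108, 144 and 188 CPM in GMP and 7.62, 10.1 and 13.6 CPM in CMP (3.82 ± 0.25, adjusted p 4.63e-05); it has a close paralog, and reads common to both could be split. Clec12a, an inhibitory lectin of myeloid cells, had 347, 489 and 971 CPM in GMP and 94.5, 103 and 126 CPM in CMP (2.38 ± 0.25, adjusted p 0.000789). Ctss, the lysosomal protease cathepsin S, had 4.21, 10.1 and 18.7 CPM in GMP and 30.5, 39.3 and 56.4 CPM in CMP (-2.10 ± 0.26, adjusted p 0.00182). Of 5 dendritic and antigen presentation genes tested 2 fell, Flt3 and the lectin Cd209a (-3.99 ± 0.52, adjusted p 0.00229), which had at most 0.794 CPM in GMP and at least 3.19 CPM in CMP. Cd209a had at most 2 reads in any GMP library. It passed the filter on low counts through CMP, where it is higher, so it could hardly be called higher in GMP.

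**Figure D4:**
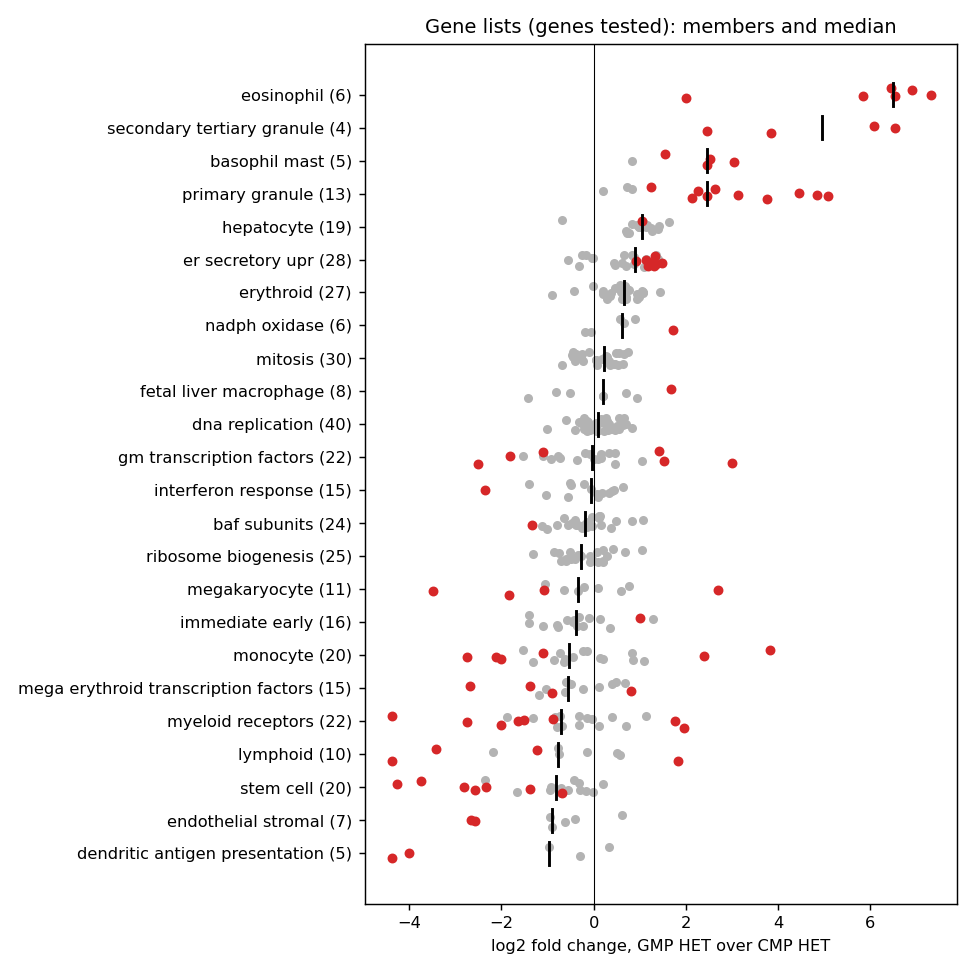
Log2 fold change of GMP HET over CMP HET (x axis) for the tested members of 24 gene lists (number tested in brackets), red where the adjusted p is under 0.05, with a bar at the median of each list. The 6 tested eosinophil genes have the highest median at 6.49, and the stem cell list has a median of -0.81 with 0 members called higher.

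Stem cell genes were lower in GMP or did not pass. Of 20 tested 7 fell and 0 rose (median -0.81), and 12 fell and 0 rose without pairs 7 and 9. Over all genes 2.20% were lower, and 12.3% without these pairs. Hoxa9, Mycn and Tek had at most 4, 6 and 7 reads in any GMP library. They passed the filter on low counts through CMP, where they are high, so they could hardly be called higher in GMP. Cd34 (-0.69), 1 of the 7, is an antigen of the gate. Its call was kept only without pair 7 of the fits that left out 1 pair. Hmga2, an architectural chromatin protein of fetal stem cells, had 26.3, 38.4 and 49.5 CPM in GMP and 144, 189 and 214 CPM in CMP (-2.32 ± 0.20, adjusted p 0.000205). Hoxa9, a homeobox factor of stem and progenitor cells, had 0, 0.270 and 1.33 CPM in GMP, where 3 libraries had no reads, and 7.72, 9.38 and 10.6 CPM in CMP (-4.26 ± 0.64, adjusted p 0.00522). Mycn, a MYC family factor, had 0, 0.698 and 1.62 CPM in GMP and 5.84, 8.91 and 11.7 CPM in CMP (-3.73 ± 0.59, adjusted p 0.00685). These 3 genes had no overlap between the gates and kept their calls in all 6 fits without 1 pair. Tek, the angiopoietin receptor, fell (-2.56 ± 0.52, adjusted p 0.0226) and kept its call in 1 of these fits, the one without pair 7.

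Of 10 lymphoid genes 3 fell and 1 rose (3 and 2 of 9 without pairs 7 and 9). For comparison, 2.20% of all genes fell and 3.80% rose, and 12.3% and 13.7% without these pairs. Ighm, the immunoglobulin mu locus, had 5.01, 5.14 and 12.0 CPM in GMP and 48.6, 68.4 and 73.0 CPM in CMP (-3.43 ± 0.26, adjusted p 8.87e-05), with GMP 7 the highest of GMP. Satb1, a chromatin organiser of lymphoid progenitors, had 17.4, 22.22 and 23.0 CPM in GMP and 40.3, 47.4 and 76.0 CPM in CMP (-1.23 ± 0.20, adjusted p 0.0072). Ets1, an ETS factor of lymphocytes, had 5.16, 8.33 and 10.9 CPM in GMP and 1.34, 2.03 and 3.58 CPM in CMP (1.84 ± 0.31, adjusted p 0.00845). Pax5, which defines B cells, had no reads in either gate.

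The other falls named by rank were of genes with varied roles. Hpgd, which inactivates prostaglandins, had 0, 0.996 and 2.15 CPM in GMP and 11.2, 15.6 and 18.1 CPM in CMP (-4.01 ± 0.57; -3.31 without pairs 7 and 9). Nrp1, a semaphorin and VEGF co-receptor, had 1.33, 2.73 and 7.28 CPM in GMP and 33.996, 39.4 and 53.0 CPM in CMP (-3.57 ± 0.33). F2r, the thrombin receptor, had 0.666, 2.79 and 4.04 CPM in GMP and 16.3, 30.9 and 37.2 CPM in CMP (-3.48 ± 0.38). The gates did not overlap for any of the 3. The cyclin gene Ccnd1 (-3.25 ± 0.34), the co-stimulatory receptor Cd27 (-3.04 ± 0.34) and the gap junction gene Gja1 (-3.03 ± 0.43) fell with no overlap. Ifi203 (-3.52 ± 0.26) fell too, but is a member of a multigene family whose copies can share reads. Hpgd, Nrp1, F2r, Ccnd1, Cd27 and Gja1 had at most 6, 27, 15, 13, 29 and 16 reads in any GMP library. These genes passed the filter on low counts through CMP, where they are high, so they could hardly be called higher in GMP. Mef2c, a factor of lymphoid and monocyte development, had 34.9, 68.6 and 103 CPM in GMP and 186, 229.5 and 278 CPM in CMP (-1.84 ± 0.27, adjusted p 0.00478).

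The remaining rises named by rank were Fcnb, Prom1 and Hsd11b1. Fcnb, ficolin B, a secreted lectin of myeloid cells, had 89.2, 133 and 211 CPM in GMP and 1.33, 1.94 and 4.70 CPM in CMP (5.82 ± 0.37, adjusted p 4.63e-05). Prom1, prominin 1, had 40.6, 72.8 and 102 CPM in GMP and 0.898, 1.34 and 3.45 CPM in CMP (5.54 ± 0.25, adjusted p 1.16e-05). Hsd11b1, which regenerates active glucocorticoid, had 84.4, 106 and 156 CPM in GMP and 2.16, 3.40 and 4.41 CPM in CMP (5.01 ± 0.30, adjusted p 3.99e-05). The gates were at least 10 times apart for each. Fcnb had 5 to 21 reads and Prom1 5 to 13 reads in the CMP libraries. Both passed the filter on low counts through GMP, where they are high.

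Of 28 tested genes of the secretory pathway and the unfolded protein response 9 rose and 0 fell (median 0.90 against 0.01 over all genes), and 20 rose and 0 fell without pairs 7 and 9. Over all genes 3.80% were higher, and 13.7% without these pairs. P4hb, a protein disulfide isomerase, had 1940, 1978 and 2205 CPM in GMP and 710.4, 812 and 918 CPM in CMP (1.32 ± 0.17, adjusted p 0.00182). Xbp1, the transcription factor of this response, had 349, 388 and 562 CPM in GMP and 132, 161 and 212 CPM in CMP (1.30 ± 0.17, adjusted p 0.002). Edem1, of the degradation of misfolded glycoproteins, also rose (1.13 ± 0.18). Hspa5, the chaperone BiP, had 2721, 2954 and 6824 CPM in GMP and 1208, 1503 and 1723 CPM in CMP (1.34 ± 0.24, adjusted p 0.0126; 0.99 without pairs 7 and 9), with GMP 7 and 9 the highest, and lost its call without pair 10. All 4 were without overlap.

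The lists of mitosis, DNA replication, ribosome biogenesis, BAF subunit, interferon response and immediate early genes held 0 or 1 called genes each. Over all 6 pairs 3.80% of all genes were called higher and 2.20% lower. Such counts are near this background and are not read as a result about these lists. Of 30 mitosis and 40 DNA replication genes 0 passed in either direction by edgeR, with medians of 0.22 and 0.10, and without pairs 7 and 9 4 and 3 rose and 1 and 4 fell, where 13.7% of all genes were higher and 12.3% lower. Of 25 ribosome biogenesis genes 0 passed with all 6 pairs (median -0.28). Without pairs 7 and 9, 9 of the 25 fell and 0 rose, a larger share than the 12.3% of all genes called lower. Among 24 BAF subunit genes 1 fell, Bcl11a, a zinc finger factor of lymphoid and fetal haemoglobin control, with 15.5, 21.7 and 33.2 CPM in GMP and 45.3, 56.8 and 57.9 CPM in CMP (-1.33 ± 0.21, adjusted p 0.00713). Of 15 interferon response genes 1 fell, the interferon-induced GTPase gene Mx1 (-2.35 ± 0.55, adjusted p 0.0394), and of 16 immediate early genes 1 rose, the phosphatase gene Dusp1 (1.00 ± 0.22, adjusted p 0.0321). The call of Mx1 was lost without pair 3, 4, 9 or 10 and that of Dusp1 without pair 1, 4, 9 or 10. Mx1 had at most 5 reads in any GMP library and passed the filter on low counts through CMP, where it is higher.

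Markers of other fetal liver cells were read beside these results. Their counts stand against 3.80% of all genes higher and 2.20% lower, and 13.7% and 12.3% without pairs 7 and 9. Summed over 22 hepatocyte genes, GMP had 475, 1376 and 2319 CPM and CMP 269, 436 and 2254 CPM; of 19 tested 1 rose, the apolipoprotein gene Apoe (1.05 ± 0.25, adjusted p 0.0427, lost in the 5 fits without pair 1, 3, 4, 9 or 10), and the median was 1.04 (0.19 without pairs 7 and 9). Erythroid genes summed to 949, 6025 and 7583 CPM in GMP and 832, 1877 and 5319 CPM in CMP; 0 of 27 passed, with a median of 0.66, and 6 rose without pairs 7 and 9. In GMP the sums of libraries 9 and 10 were at 949 and 970 CPM and the other 4 at 5569 to 7583 CPM. Of 8 macrophage genes tested Adgre1, which encodes F4/80, rose (1.68 ± 0.29; lost without pair 1 or 10). Of 11 megakaryocyte genes 3 fell, F2r, Mef2c and the platelet protein gene Plek (-1.08 ± 0.22; kept without pair 7 or 9), and 1 rose, the thrombospondin gene Thbs1 (2.70 ± 0.54), which was lost without pairs 7 and 9 (adjusted p 0.0892) and without pair 1, 4, 9 or 10 alone; without pairs 7 and 9, 6 of 12 fell and 0 rose. Of 7 endothelial and stromal genes 2 fell, Tek and the endomucin gene Emcn (-2.66 ± 0.59; kept only without pair 7). Tek and Emcn had at most 7 and 4 reads in any GMP library. Both passed the filter on low counts through CMP, where they are higher, so they could hardly be called higher in GMP. In bulk libraries fewer cells of a type and less RNA per cell cannot be told apart, and the part of these markers in the results was not tested.

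The same comparison was read in 3 WT pairs, which share no library with the HET pairs. All 421 genes called higher in HET had a positive fold change in WT, and 243 of the 244 called lower had a negative one. Of them 142 and 35 were also called in WT, where 1.21% of 11807 genes were called higher and 0.339% lower. Over all 11082 genes 85.3% shared a sign, and the fold changes had a Pearson r of 0.87 and a Spearman rho of 0.86 across genes, which are not independent replicates and share the sorting gates and the count tables. Elane differed by 5.12 in WT, Epx by 6.13, Flt3 by -5.18 and Irf8 by -0.68. No gene differed between the HET and the WT fold change by edgeR (0.00%; 46 at an unadjusted p under 0.05; lowest adjusted p 1.00), whereas limma with quality weights called 4269. The 46 of 11807 are fewer than the 1 in 20 that chance alone would give. The edgeR test was thus conservative here, and the absence of calls does not show that the fold changes are equal. WT GMP libraries 5 and 12 had a length index of -0.74 and -0.63, and WT GMP 2 had 0.46, over all GMP and CMP libraries.

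**Figure D5:**
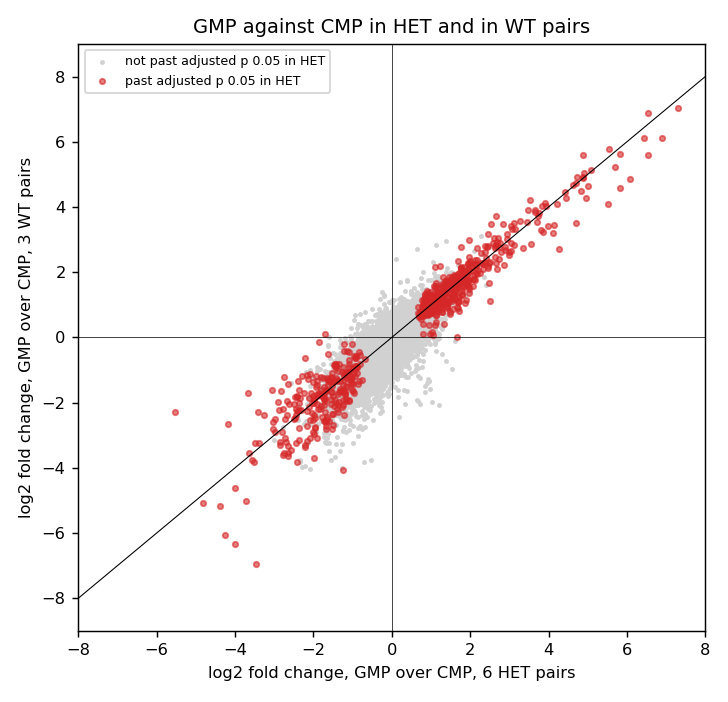
Log2 fold change of GMP over CMP in 3 WT pairs (y axis) against that in 6 HET pairs (x axis) for 11082 genes, red where the adjusted p is under 0.05 in HET; the line marks equal values. All 421 genes called higher in HET are above 0 in WT, and 243 of the 244 called lower are below 0.

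Against 3 KO pairs, the GMP over CMP fold change differed for 4 genes by edgeR's test of the difference (0.0339% of 11807; 1555 at an unadjusted p under 0.05), for 688 without pairs 7 and 9, and for 0 by limma with quality weights, which thus called none of the 4. Ly6c2 differed by 3.82 in HET and -0.62 in KO (difference 4.44 ± 0.61, adjusted p 0.0196). In KO it had 0.219, 0.441 and 2.68 CPM in GMP and 0.803, 0.833 and 2.71 CPM in CMP, so both KO gates were below every HET library. These levels rest on 10 reads in KO GMP and 16 in KO CMP. Irf8 differed by -1.10 in HET and -3.86 in KO (2.76 ± 0.38, adjusted p 0.0196), with 6.17, 21.9 and 23.7 CPM in KO GMP and 184, 204 and 299 CPM in KO CMP. Il13ra1, an interleukin 13 receptor chain, differed by -1.37 in HET and -5.58 in KO (4.22 ± 0.62, edgeR adjusted p 0.0292). KO GMP held 4 reads of it in all and KO CMP 232. Cep83os, an RNA antisense to Cep83, differed by 0.44 in HET and -4.87 in KO (5.31 ± 0.84, edgeR adjusted p 0.0470). Its reads cannot be told from those of its partner without strand, and KO GMP held 3 in all and KO CMP 105. The KO fold changes of Il13ra1 and Cep83os thus rest on few reads in GMP. The 3 KO GMP libraries had length indices of -1.74, -0.09 and -1.85. Spike-ins held 2.52% to 3.06% of their reads, against 0.121% to 0.394% in the HET GMP libraries. KO pair 6 carries M32 in its titles. Pairs 13 and 15 carry M34, which no HET library of these gates carries. For those pairs title series and genotype cannot be told apart, and the part of all these in the differences was not tested.

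The titles split the pairs into M32 (4 pairs) and M33 (2 pairs), and the comparison was refitted within each. Within M32 80 genes passed and within M33 648. Of the 664 called genes that could be tested in each, all 664 kept their direction in M32 and all 664 in M33. These genes were called over the same pairs, where 412 of 421 rises and 238 of 244 falls shared a direction in all 6. The agreement therefore follows largely from the selection and is no independent check. Elane differed by 5.07 in M32 and 4.99 in M33, Epx by 7.72 and 6.09, and Flt3 by -4.67 and -3.99.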

How the data were processed

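The authors deposited 1 table of raw read counts per gene for each sorted population; per the submitters' processing notes, featureCounts was used with mm10 and GRCm38, and for the aligner and the annotation the sources used here give no name. Values are whole-number counts, not normalized, and spike-in rows were left out of the library sizes. Gene symbols and transcript lengths came from GENCODE M21, and promoters from RefSeq. The rule by which each table lists genes is not given, and the tables differ in the genes they list, so only genes in both were compared.

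Counts were fitted with edgeR 4.0.16 (R 4.3.3): filterByExpr with a minimum count of 10, TMM scaling, a robust quasi-likelihood fit with replicate number as a block, and Benjamini-Hochberg adjustment at 0.05 over all genes tested. The filter needs reads in only 6 libraries, so a gene near 0 in 1 gate entered through the other. Differences between genotypes were tested as interactions in 1 fit of 6 HET, 3 WT and 3 KO pairs. Alternatives were other scalings and filters, DESeq2 1.42.0, limma 3.58.1 with quality weights, no block, replicate 8 kept, M32 or M33 pairs alone, spike-in share or length index as covariate, and leaving out each pair. Named genes were Smarcd2, the 10 largest rises and falls in the same direction in all 6 pairs with an average log2 CPM of at least 3, up to 4 members of each list by unadjusted p, and further members of 5 lists of granule, transcription factor and receptor genes. Genes that this rule names and the text does not are not reported here. The members and lists were chosen with earlier results of these data known. On data simulated for this comparison over 10885 genes, the fit called 97 of 100 genes changed by 2 on the log2 scale, 18 of 100 changed by 1, and 3 unchanged genes. The changed genes were drawn only from genes above a set mean fitted count, so these shares do not cover genes with few reads. The values count reads, not molecules, so counting error is only part of their error.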

Additional observations from a re-analysis of the deposited data

Results flagged for a closer look

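With 6 libraries a group, 1 library lay far from the other 5 by Dixon's criterion for 18 of the 180 groups of named genes examined, and chance gives about 1 in 20. In GMP 8 of these were library 7, with the highest level of Elane (10608 CPM), Prg2 (12560 CPM), Ctsg (4585 CPM), Prtn3 (1494 CPM), Nkg7 (1496 CPM), Apoe (1023 CPM), Cebpd (66.6 CPM) and Ighm (12.0 CPM). GMP library 1 had the highest Mx1 (3.00 CPM). In CMP, library 3 had the highest Satb1 (76.0 CPM), Thbs1 (23.97 CPM), Gfi1 (14.8 CPM), S100a8 (12.3 CPM) and S100a9 (10.1 CPM). CMP library 1 had the highest Prom1 (3.45 CPM), CMP library 9 the highest Ccnd1 (34.9 CPM) and the lowest Plek (90.0 CPM), and CMP library 7 the lowest Bcl11a (45.3 CPM).

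The GMP over CMP fold change differed between HET and KO pairs by edgeR's test of the difference for Ly6c2 (4.44), Irf8 (2.76), Il13ra1 (4.22) and Cep83os (5.31), each higher in HET on the log2 scale. Limma with quality weights called none of them, and KO pairs 13 and 15 carry M34 in their titles.

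Some genes with reads in the 6 HET GMP libraries are listed in the GMP table and not in the CMP table, and were not compared. Among the gene lists and Pglyrp1, a bactericidal granule protein gene, the highest totals were 1774 reads for Pglyrp1, 1295 for Cebpe, a C/EBP factor of late granule genes, 1101 for Ear1, 1081 for Olfm4, a neutrophil granule glycoprotein gene, and 834 for Ear2.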

How the results depend on the processing

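Against 665 genes called in GMP over CMP (421 higher, 244 lower), RLE scaling (a median of ratios), library size alone, no filter on low counts, M33 pairs alone and the fit with WT and KO pairs gave 610 to 733. A minimum count of 50 gave 416 (130 lower), replicate 8 kept 400 (247 and 153), M32 pairs alone 80 (67 and 13), and spike-in share as covariate with the block 276 (211 and 65). Higher counts came from DESeq2 (1538; 749 and 789), limma (3496; 1950 and 1546), the length index with the block (2413; 1304 and 1109) and leaving out both pairs 7 and 9 (2898; 1532 and 1366). M33 pairs alone split as 247 higher and 401 lower. Leaving out 1 pair gave 272 to 1386 calls (196 to 779 higher, 76 to 607 lower): 296, 447, 330, 1386, 341 and 272 without pairs 1, 3, 4, 7, 9 and 10. Without the replicate block 1189 were called (747 and 442); same-numbered libraries correlated at -0.16 to 0.35 in their deviations from the group means, with 2 of 6 GMP libraries matching their own number best, so the numbers are not shown to pair the libraries and the block was kept because it defines the comparison.

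Of the 77 named genes called, 53 held in all 6 fits without 1 pair; 0 were lost without pair 7, 18 without pair 1, 14 without 3, 16 without 4, 19 without 9 and 22 without 10. Over these genes and the alternatives, 1301 of 1528 values kept their direction and call, 227 lost the call and 0 reversed. Cebpa, not called, reversed to 0.72 with limma, 0.10 without the block, 0.036 in M32, 0.51 with the spike-in share, 0.27 with the length index and 0.53 without pairs 7 and 9, with -0.53 to 0.23 over fits without 1 pair. The HET minus WT test called 0 genes in every edgeR fit and 4269 with limma, whose library weights ran from 0.154 to 4.71. The HET minus KO test called 4, and 0 with limma, 65 without the block, 7 with replicate 8 kept and 688 without pairs 7 and 9. The cause of these shifts was not tested. Genes under the count minimum of 10 were not compared.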
